A study of Ovis aries with 32 samples.

Results

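Insulin acts on fat cells through a short chain of proteins, and 9 genes of that chain were followed here across 4 fat depots of female sheep. They were chosen by symbol as rows of the deposited count table (INSR, IRS1, IRS2, GRB14, SLC2A4, AKT2, PIK3R1, PIK3CA and FOXO1), and 9 of 9 were present among the 28524 genes of the table. The choice was made with earlier results of these data known. The gene that set a depot apart was GRB14, an adaptor that binds the activated insulin receptor and restrains it. It stood at 21.3 to 41.0 CPM in the epicardial fat of control sheep and at no more than 4.55 CPM in any library outside epicardial fat. The docking proteins IRS1 and IRS2 were lower in epicardial than in perirenal and visceral fat of control sheep, and the glucose transporter gene SLC2A4 was lower in subcutaneous than in perirenal and epicardial fat. Of these calls, only that of IRS1 between perirenal and epicardial fat held whichever sheep was left out. The SLC2A4 call against epicardial fat was also lost without the epicardial libraries rich in heart muscle transcripts. No member passed the main test for an effect of testosterone before birth in any depot, and neither did any other gene. GRB14 had too few reads for that test in visceral and perirenal fat.

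The study took fat from 4 places in 8 adult sheep, namely around the rumen (visceral), under the skin of the sternum (subcutaneous), around the kidney (perirenal) and on the heart (epicardial), which gave 32 libraries of 3′ end sequencing, a method that reads the tail of each messenger RNA. The 4 control animals, numbered 98, 131, 132 and 201 in the labels, were daughters of control ewes, whose handling the labels do not describe further. The 4 testosterone animals, numbered 48, 185, 233 and 255, were daughters of ewes injected 2 times a week with 100 mg testosterone propionate (1.2 mg/kg) in 2 ml corn oil from day 30 to day 90 of gestation, which models polycystic ovary syndrome. Animals of both groups were fed a maintenance diet, had their ovaries removed after the second breeding season, and carried progesterone implants for 14 days and then 4 estradiol implants of 30 mm for 18 hours before the tissue was taken. At most 1 daughter per ewe was used in a group, so the 4 libraries of a group are 4 animals. Breed and age in years are not given in the labels used here.

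As background, insulin binds the receptor encoded by INSR, a tyrosine kinase that phosphorylates the docking proteins IRS1 and IRS2. These recruit a lipid kinase made of a regulatory subunit (PIK3R1) and a catalytic subunit (PIK3CA), whose product activates the kinase AKT2. AKT2 sends the glucose transporter encoded by SLC2A4 to the fat cell surface and keeps the transcription factor FOXO1 out of the nucleus. GRB14 and its relative GRB10 bind the active receptor and limit its kinase activity, as known from mouse and human work.

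Levels are given as CPM, counts scaled to a common library size after correction by TMM factors (a correction for library composition). They were not divided by transcript length, because each 3′ read stands for a transcript end. Differences are log2 fold changes with their standard error (SE) from edgeR's quasi-likelihood test, and a gene passed when its p-value, adjusted over all genes tested, was under 0.05. Total counts were 784135 to 8267824 per library. The labelled tissue was checked with 11 adipocyte genes. All 11 had counts in every group, and their sum was 27590 to 54240 CPM in control libraries outside epicardial fat and 7366 to 19780 CPM in control epicardial libraries. A list of 17 heart muscle genes, 15 of them in the table, summed to 20210, 4226, 138 and 643 CPM in the epicardial libraries of control sheep 98, 131, 132 and 201, to 31060, 431, 4311 and 130 CPM in those of testosterone sheep 48, 185, 233 and 255, and to at most 202 CPM elsewhere, where its members TNNT2, MYL7, NPPA and NPPB had no count. The visceral library of testosterone sheep 255 and the subcutaneous library of testosterone sheep 48, which had the lowest total, held ARGLU1 at 18440 and 25680 CPM against at most 4737 CPM in any other library. The epicardial library of testosterone sheep 255 stood apart in HOXC6, a homeobox gene of the body axis, with 95.5 CPM, against at most 2.165 CPM in the other epicardial libraries and 75.5 to 246.6 CPM in the libraries of the other depots. In whole tissue, fewer cells of a type and less RNA per cell cannot be told apart.

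INSR, the receptor itself, was at a similar level in all depots. In control sheep it stood at 214 ± 6.24 CPM (SD, n = 4) in perirenal, 193 ± 18.5 CPM in visceral, 188 ± 16.4 CPM in epicardial and 177 ± 31.8 CPM in subcutaneous fat. Over all 32 libraries it ran from 136 to 259 CPM, with both ends in subcutaneous fat of testosterone sheep. The depots overlapped in each pair of control groups except perirenal against epicardial, where the 4 perirenal libraries (207 to 223 CPM) lay above the 4 epicardial ones (165 to 202 CPM). The difference with the smallest p-value was between subcutaneous and perirenal fat, the depots with the lowest and the highest mean. It was -0.27 on the log2 scale (SE 0.12, 95% interval -0.528 to -0.014, edgeR unadjusted p = 0.0401, adjusted p = 0.115). INSR therefore passed in no pair of control depots, though this interval lay below 0 before adjustment over all genes. In testosterone sheep the highest depot mean was 1.05 times the lowest.

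GRB14 was the member with the widest range. In epicardial fat it was at 21.3, 41.0, 37.45 and 24.4 CPM in control sheep 98, 131, 132 and 201, from 66, 220, 217 and 119 reads. In subcutaneous fat of the same animals it was at 4.55, 3.45, 2.455 and 2.365 CPM, from 19, 13, 11 and 13 reads. The perirenal libraries held 0, 7, 2 and 1 reads and the visceral libraries 0, 1, 1 and 3 reads, all at or under 1.09 CPM. Each epicardial library therefore lay above each subcutaneous one, and each subcutaneous one above every visceral and perirenal library, while visceral and perirenal fat overlapped.

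The pooled ratio of GRB14 in control sheep was 10.4 between epicardial and subcutaneous fat (95% counting interval 7.91 to 13.9), 84.0 between epicardial and perirenal fat (45.4 to 176) and 173 between epicardial and visceral fat (73.9 to 536), where the last rests on 5 visceral reads. The intervals reflect counting error alone: the library reads carry no molecular tags and may repeat a molecule. Tested across sheep, with the sheep as a block, GRB14 differed by -3.24 on the log2 scale (SE 0.38, edgeR adjusted p = 1.51e-05) for subcutaneous minus epicardial fat, -6.31 (SE 0.48, adjusted p = 2.09e-07) for perirenal minus epicardial fat and -7.21 (SE 0.52, adjusted p = 1.69e-07) for visceral minus epicardial fat. Subcutaneous fat also passed as higher than perirenal fat (3.07, SE 0.57, adjusted p = 0.00129) and visceral fat as lower than subcutaneous fat (-3.97, SE 0.63, adjusted p = 8.28e-04). These calls held without each single sheep, but their sizes moved. Subcutaneous minus perirenal fat was at 2.42 without sheep 98 and 4.201 without sheep 131, and visceral minus subcutaneous fat at -3.32 without sheep 98 and -4.95 without sheep 201. Perirenal minus epicardial fat was at -7.34 without sheep 131, and visceral minus epicardial fat at -8.13 without sheep 201. Visceral minus perirenal fat was at -0.90 (95% interval -2.72 to 0.919, adjusted p = 0.697), from 5 and 10 reads in all.

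**Figure D1:**
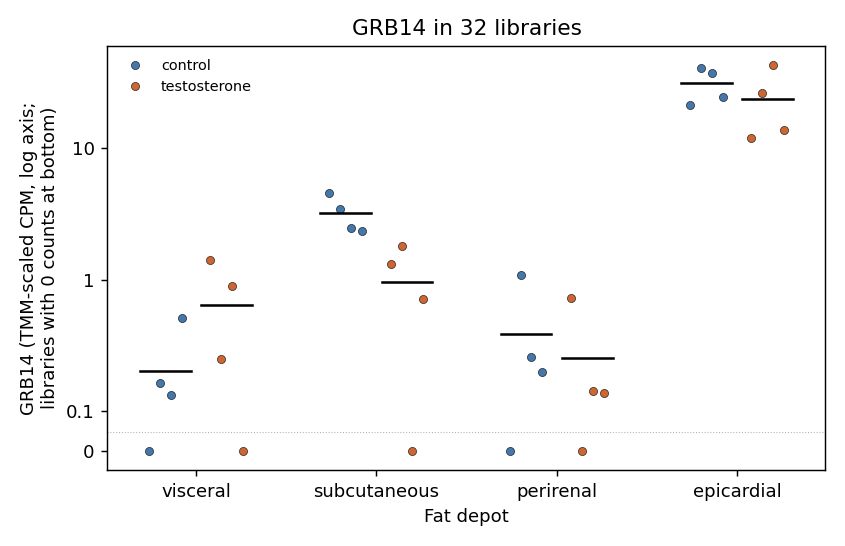
GRB14 in each of the 32 libraries, as TMM-scaled CPM on a log axis, by depot and treatment; libraries with 0 reads are drawn at the bottom and black bars are means of 4 sheep. The 8 epicardial libraries lie at 11.96 to 42.7 CPM, above each of the other 24, and the 4 control subcutaneous libraries lie above the 4 testosterone ones.

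Testosterone sheep had GRB14 in epicardial fat too, at 11.96, 26.4, 42.7 and 13.85 CPM in animals 48, 185, 233 and 255. Their subcutaneous libraries held 1, 7, 0 and 4 reads (1.31, 1.804, 0 and 0.717 CPM), their visceral libraries 7, 2, 6 and 0 reads and their perirenal libraries 3, 0, 1 and 1 reads. Epicardial fat was again above each other library, and the remaining depots overlapped. On the log2 scale the difference reached -4.77 (SE 0.79, edgeR adjusted p = 0.00433) for subcutaneous, -5.22 (SE 0.78, adjusted p = 0.00696) for visceral and -6.66 (SE 0.86, adjusted p = 0.00245) for perirenal minus epicardial fat. The visceral difference passed in neither the fit without sheep 185 (-4.81, adjusted p = 0.0645) nor the one without sheep 233 (-5.14, adjusted p = 0.0697). The other 2 passed without each sheep, with subcutaneous minus epicardial fat at -3.78 without sheep 233 and -5.52 without sheep 185, and perirenal minus epicardial fat at -7.79 without sheep 48. Subcutaneous minus perirenal fat, which passed in controls, was at 1.89 (95% interval -0.54 to 4.33, adjusted p = 0.37) in testosterone sheep.

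GRB14 was high in epicardial libraries with many and with few heart muscle transcripts. The epicardial library of control sheep 132, with 138 CPM of summed heart muscle genes, held 37.45 CPM of GRB14, and that of control sheep 98, with 20210 CPM, held 21.3 CPM. The lowest epicardial GRB14 level, 11.96 CPM, was in the library with the most heart muscle transcripts, testosterone sheep 48. The highest levels, 42.7 and 41.0 CPM, were in testosterone sheep 233 and control sheep 131, with heart muscle sums of 4311 and 4226 CPM. Testosterone sheep 255, with the lowest sum of 130 CPM, held 13.85 CPM. A relation between GRB14 and these sums within epicardial fat was not tested. Without the 4 epicardial libraries whose heart muscle list summed to over 1000 CPM, the control differences were -3.54 for subcutaneous (edgeR adjusted p = 2.98e-04), -6.60 for perirenal (adjusted p = 4.46e-06) and -7.50 for visceral minus epicardial fat (adjusted p = 2.79e-06). In testosterone sheep they were -4.77 (adjusted p = 0.0174), -6.85 (adjusted p = 0.0191) and -5.39 (adjusted p = 0.0892), so that the visceral call was lost. A list of 7 stromal progenitor genes was also highest in epicardial fat of control sheep, with sums of 4878 to 6248 CPM in epicardial libraries and at most 3824 CPM in other control libraries. Among the other control depots it did not follow GRB14. Its median sum was lowest in subcutaneous fat, at 2925 CPM against 3284 CPM in perirenal and 3594 CPM in visceral fat. In testosterone sheep the sums of the list were 3429 to 4702 CPM in epicardial fat, within the ranges of perirenal (3000 to 7437 CPM) and visceral fat (2330 to 9737 CPM). The visceral maximum was that of sheep 233. Subcutaneous fat of these sheep had lower sums, 2080 to 3596 CPM, which overlapped with the epicardial ones. The median sums were 4887 CPM in perirenal, 3903 CPM in epicardial, 3102 CPM in visceral and 2411 CPM in subcutaneous fat. The part of this list in the GRB14 difference was not tested. Without sheep 255, whose epicardial library held HOXC6, the 3 testosterone differences were -5.08 for subcutaneous (adjusted p = 0.0096), -6.71 for perirenal (adjusted p = 0.00262) and -5.10 for visceral minus epicardial fat (adjusted p = 0.00502).

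**Figure D2:**
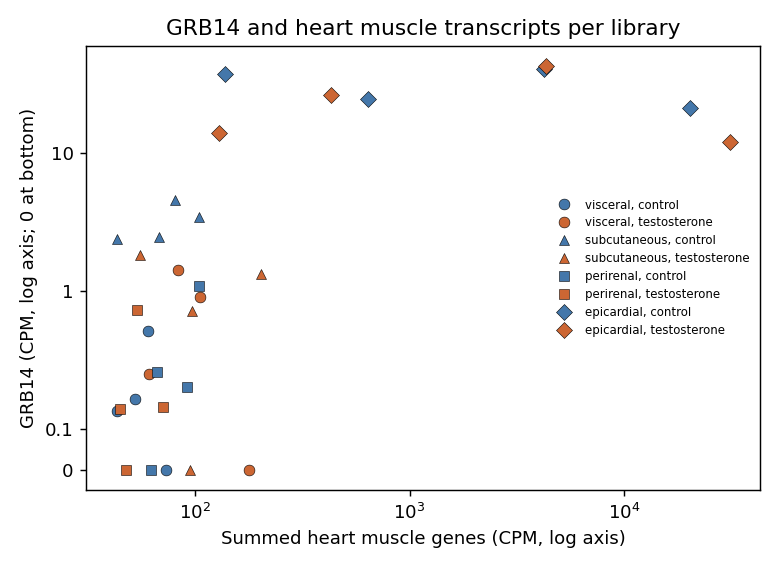
GRB14 (CPM, log axis, 0 at the bottom) against the sum of 15 heart muscle genes (CPM, log axis) in each of the 32 libraries. Epicardial libraries (diamonds) hold 11.96 CPM of GRB14 or more across heart muscle sums from 130 to 31060 CPM, and libraries of the other depots hold at most 4.55 CPM.

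The 2 relatives of GRB14 had other patterns. GRB10, the other adaptor that binds the active receptor, was at 93.4, 82.3, 68.2 and 72.9 CPM in epicardial fat of control sheep 98, 131, 132 and 201. It stood at 247, 195, 163 and 344.5 CPM in their perirenal libraries, and at 111 to 234 CPM in subcutaneous and visceral fat. The 4 epicardial libraries were therefore the lowest of the 16. GRB10 passed as higher than in epicardial fat in perirenal (1.497, SE 0.18, edgeR adjusted p = 2.64e-05), visceral (1.07, SE 0.18, adjusted p = 4.11e-04) and subcutaneous fat (0.88, SE 0.18, adjusted p = 0.00164), and as lower in subcutaneous than in perirenal fat (-0.62, SE 0.17, adjusted p = 0.016). This last call was lost without sheep 98 (adjusted p = 0.0555) or 131 (adjusted p = 0.0846) and in the fit without the sheep block (adjusted p = 0.0845). In testosterone sheep 48, 185, 233 and 255 epicardial GRB10 was at 72.35, 67.1, 94.1 and 134.4 CPM. These values overlapped with subcutaneous (98.5 to 122.2 CPM), visceral (114.3 to 154.7 CPM) and perirenal fat (131 to 235 CPM). Perirenal minus epicardial fat was at 0.91 (SE 0.22, edgeR adjusted p = 0.0507) and missed the threshold. GRB7, the remaining gene of the family, had at most 2 reads in any library and was not tested.

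IRS1, a docking protein that passes the signal from the receptor to the lipid kinase, was lowest in epicardial fat. In control sheep 98, 131, 132 and 201 it was at 11.95, 15.6, 17.8 and 17.3 CPM in epicardial, 18.3, 21.4, 30.5 and 26.6 CPM in visceral, and 20.6, 19.5, 36.3 and 31.99 CPM in perirenal fat. The epicardial values lay below all visceral and perirenal ones, and the subcutaneous libraries, at 14.85, 14.87, 30.4 and 20.9 CPM, overlapped with every depot. IRS1 passed as higher in perirenal (0.73, SE 0.16, edgeR adjusted p = 0.00399) and in visceral (0.59, SE 0.16, adjusted p = 0.016) than in epicardial fat. The visceral call was lost without sheep 98 (adjusted p = 0.0505), 132 (adjusted p = 0.0712) or 201 (adjusted p = 0.0705), and without the sheep block (adjusted p = 0.13). Without the heart-muscle-rich libraries both differences held, at 0.90 and 0.76 (adjusted p = 0.00816 and 0.0239). In testosterone sheep the perirenal libraries (24.5 to 43.6 CPM) again lay above the epicardial ones (11.4 to 18.2 CPM), with a log2 fold change of 0.95 (SE 0.30) that missed the threshold (adjusted p = 0.1) and passed without sheep 255 (1.12, adjusted p = 0.0311) and by DESeq2 (0.91, adjusted p = 0.0472).

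IRS2, the second docking protein and a known transcriptional target of FOXO1 in mouse tissues, was likewise lowest in epicardial fat. Control sheep 98, 131, 132 and 201 had 152, 365, 219 and 238 CPM in epicardial fat against 393, 412, 426 and 685 CPM in visceral fat. They had 524, 404, 319 and 803 CPM in subcutaneous fat and 615, 376, 336 and 728 CPM in perirenal fat. In each animal the epicardial library was the lowest of its 4, though the depot ranges overlapped except for visceral against epicardial fat. The difference was 0.99 (SE 0.26, edgeR adjusted p = 0.0119) for perirenal, 0.99 (SE 0.26, adjusted p = 0.0121) for subcutaneous and 0.90 (SE 0.25, adjusted p = 0.02) for visceral minus epicardial fat, and the other depots did not differ from each other beyond their spread. Without sheep 201 none of these 3 passed (adjusted p = 0.0809, 0.103 and 0.116). The first 2 also failed without sheep 98 (adjusted p = 0.0862 and 0.0547) and the last without sheep 132 (adjusted p = 0.0709) or without the sheep block (adjusted p = 0.0557). Without the heart-muscle-rich libraries they were 1.15, 1.15 and 1.08 (adjusted p = 0.00414, 0.00331 and 0.00579). In testosterone sheep epicardial fat was lowest by mean, at 229 ± 58.5 CPM against 331 to 378 CPM, and 0 of 3 differences passed, the largest being 0.62 for perirenal minus epicardial fat (95% interval -0.053 to 1.302, adjusted p = 0.257).

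The adipocyte list moved in the same direction as both docking proteins, and as FOXO1, GRB10, SORT1 and SREBF1: its sum was lower in each of the 4 control epicardial libraries than in any other control library. Its part in these differences was not tested.

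PIK3R1 and PIK3CA, the subunits of the lipid kinase, varied little. PIK3R1 had depot means of 900.1 to 962 CPM in control sheep and 738 to 960 CPM in testosterone sheep, with single libraries from 497 to 1307 CPM. Its log2 differences between control depots were all between -0.03 and 0.10, and none passed. PIK3CA was at 170, 136, 148 and 148 CPM in subcutaneous fat of control sheep 98, 131, 132 and 201, and at 124, 99.1, 135.5 and 104 CPM in their perirenal fat. All 4 subcutaneous values lay above the 4 perirenal ones, if narrowly (135.9 against 135.5 CPM), and also above those of visceral (106 to 134 CPM) and epicardial fat (96.9 to 126 CPM). PIK3CA passed as higher in subcutaneous than in perirenal fat, by 0.40 (SE 0.14, edgeR adjusted p = 0.0431), and missed the threshold against epicardial fat (0.38, SE 0.14, adjusted p = 0.0598) and visceral fat (adjusted p = 0.146). The perirenal call was lost without sheep 98, 131 or 201 (adjusted p = 0.103, 0.158 and 0.145), without the sheep block (adjusted p = 0.0505) and with no filter on low counts (adjusted p = 0.108).

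AKT2, the kinase that carries the signal to glucose uptake in fat, did not pass in any depot pair. Its control means ran from 24.8 ± 7.81 CPM in subcutaneous to 30.3 ± 2.04 CPM in perirenal fat. The lowest of the 32 libraries was the subcutaneous one of testosterone sheep 48, at 7.88 CPM from 6 reads, which is also the library with the lowest total and the highest ARGLU1. The widest depot difference, visceral minus subcutaneous fat in testosterone sheep, was 0.56 (95% interval -0.113 to 1.23, edgeR adjusted p = 0.55).

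SLC2A4 encodes GLUT4, the transporter that insulin moves to the surface of fat and muscle cells. In control sheep 98, 131, 132 and 201 it was at 78.2, 162, 126 and 87.7 CPM in epicardial fat and at 94.5, 88.3, 103 and 109 CPM in perirenal fat. Subcutaneous fat held 23.5, 59.2, 61.8 and 32.9 CPM, below each epicardial and perirenal library. Visceral fat held 33.0, 48.1, 141 and 35.5 CPM, in which sheep 132 stood far above the other 3.

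SLC2A4 passed as lower in subcutaneous than in epicardial fat (-1.41, SE 0.31, edgeR adjusted p = 0.00584) and than in perirenal fat (-1.28, SE 0.32, adjusted p = 0.0112), and as lower in visceral than in epicardial fat (-0.99, SE 0.31, adjusted p = 0.0371). Visceral minus perirenal fat was at -0.86 (adjusted p = 0.27), and at -1.38 (adjusted p = 0.013) without sheep 132. In control sheep 98, 131, 201 and 132, whose epicardial heart muscle sums fell from 20210 through 4226 and 643 to 138 CPM, epicardial SLC2A4 was at 78.2, 162, 87.7 and 126 CPM. The part of heart muscle in these values was not tested. Without the 2 heart-muscle-rich control libraries the subcutaneous difference was -1.10 (adjusted p = 0.0948), the visceral one -0.70 (adjusted p = 0.284), and perirenal minus epicardial fat turned from -0.13 (adjusted p = 0.783) to 0.17 (adjusted p = 0.814). The 3 calls were also lost without single sheep. The subcutaneous against epicardial call failed without sheep 98 (adjusted p = 0.0506) and the subcutaneous against perirenal call without sheep 98 (adjusted p = 0.104) or 201 (adjusted p = 0.0801). The visceral call failed without 98, 131 or 201 (adjusted p = 0.154, 0.174 and 0.155), and with no filter on low counts (adjusted p = 0.109). Without the sheep block the subcutaneous against perirenal and the visceral calls were lost (adjusted p = 0.0801 and 0.191). Testosterone sheep had means of 124 ± 33.5 CPM in perirenal, 82.2 ± 30.8 in epicardial, 72.3 ± 33.9 in visceral and 58.6 ± 33.3 CPM in subcutaneous fat, with overlapping groups and subcutaneous minus perirenal fat at -1.07 (adjusted p = 0.148).

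FOXO1, the transcription factor that AKT keeps inactive, was highest in subcutaneous and lowest in epicardial fat of control sheep. Animals 98, 131, 132 and 201 had 293, 231, 196 and 209.6 CPM in subcutaneous fat and 168, 123, 190.4 and 131 CPM in epicardial fat. The 4 subcutaneous values lay above the 4 epicardial ones, with perirenal (158 to 286 CPM) and visceral fat (146 to 228.5 CPM) between and overlapping both. The difference passed for subcutaneous minus epicardial (0.61, SE 0.18, edgeR adjusted p = 0.0219) and perirenal minus epicardial fat (0.52, SE 0.18, adjusted p = 0.0446). The first call was lost without sheep 98, 131 or 201 (adjusted p = 0.0957, 0.138 and 0.0501), and the second without the same animals (adjusted p = 0.142, 0.086 and 0.295). Both were lost without the sheep block (adjusted p = 0.0522 and 0.0821) and without the heart-muscle-rich libraries (adjusted p = 0.147 and 0.196). In testosterone sheep the mean of FOXO1 was lowest in subcutaneous fat, at 164 ± 25.4 CPM, and subcutaneous minus epicardial fat was at -0.04 (95% interval -0.457 to 0.373, adjusted p = 0.946).

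**Figure D3:**
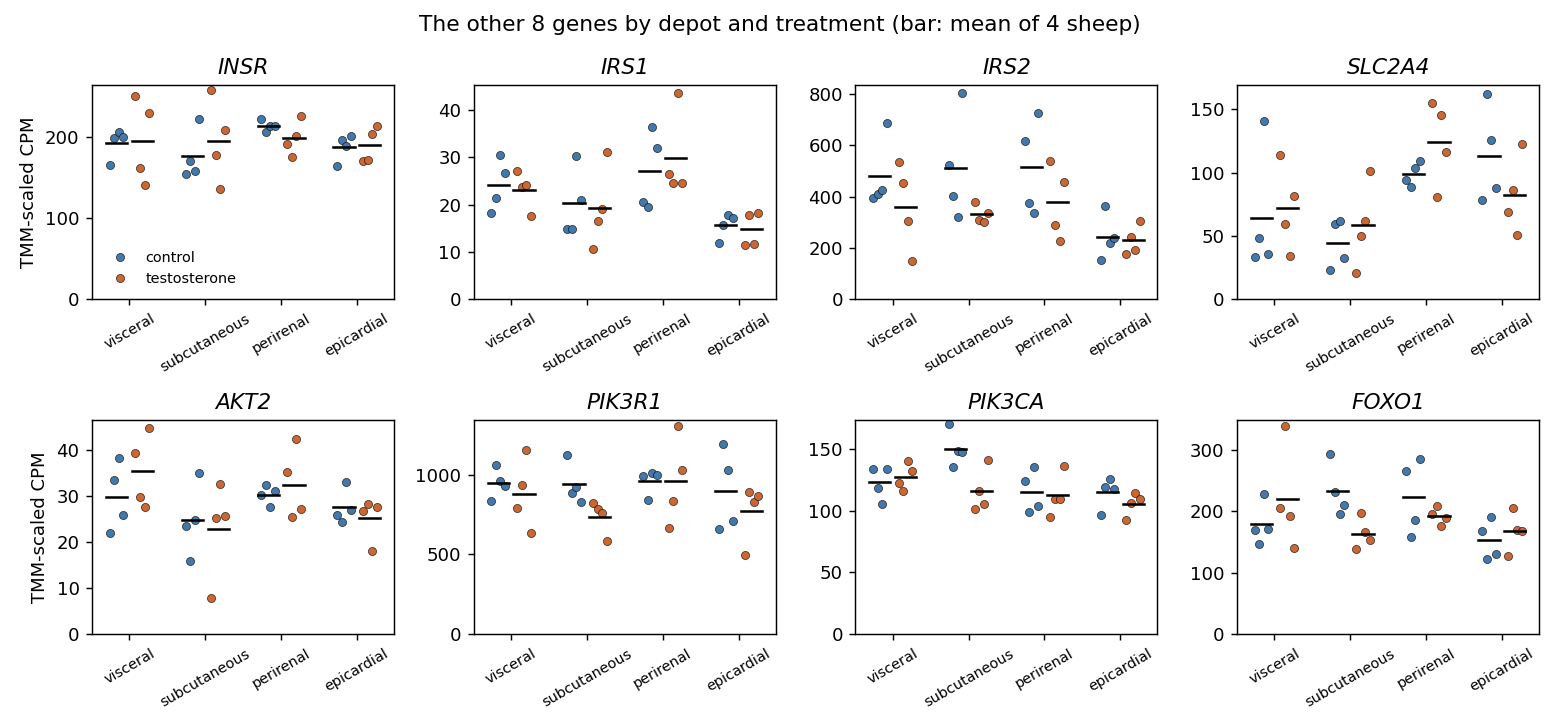
The 8 members other than GRB14 in each of the 32 libraries, as TMM-scaled CPM on linear axes from 0, by depot and treatment, with bars at the mean of 4 sheep. By group mean, IRS1 and IRS2 are lowest in epicardial fat and SLC2A4 in subcutaneous fat in both treatments.

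Counted by pair of depots, 4 of 9 members passed in control sheep for visceral against epicardial fat, where 21.9% of all genes did, 4 of 9 for subcutaneous against epicardial fat (23.1% of all genes) and 4 of 9 for perirenal against epicardial fat (25.2% of all genes). Subcutaneous against perirenal fat gave 3 of 9 (23.6%), visceral against subcutaneous fat 1 of 9 (14%) and visceral against perirenal fat 0 of 9 (0.613%). In this last pair 1 member and 1696 of 13369 genes had an unadjusted p under 0.05 by edgeR, and 0 members passed by DESeq2. With 9 members these shares are too coarse to be set apart from those of all genes. GRB14 passed in 5 of the 6 control pairs, IRS2 and SLC2A4 in 3, IRS1 and FOXO1 in 2, PIK3CA in 1, and INSR, AKT2 and PIK3R1 in 0.

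In testosterone sheep fewer genes of any kind passed. GRB14 was the 1 of 9 members to pass for visceral against epicardial fat (1.66% of all genes), subcutaneous against epicardial fat (4.5%) and perirenal against epicardial fat (1.82%). Members passing were 0 of 9 for visceral against subcutaneous fat (0.664% of all genes), visceral against perirenal fat (0.082%) and subcutaneous against perirenal fat (2.23%). In these 3 pairs 0, 1 and 1 members and 1491, 1627 and 2662 of 13411 genes had an unadjusted p under 0.05 by edgeR. By DESeq2 0 members passed.

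**Figure D4:**
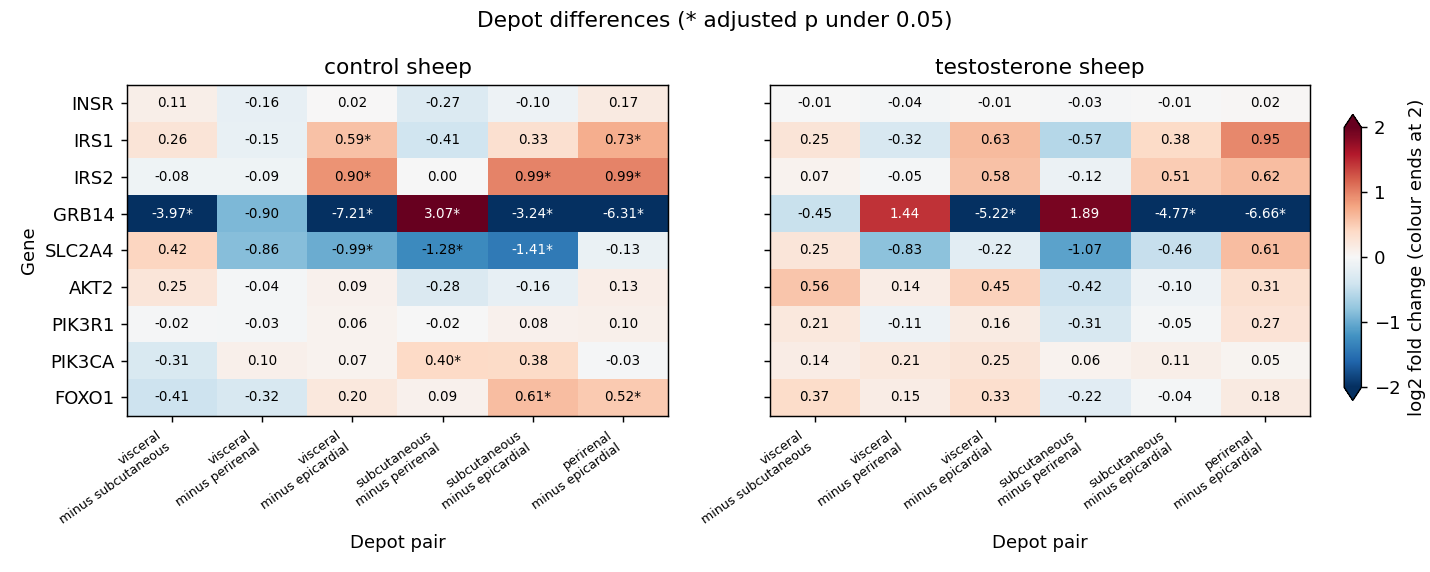
The log2 fold change of each member between each pair of depots, in control (left) and testosterone sheep (right); colour runs from -2 to 2 and stars mark an edgeR adjusted p under 0.05. GRB14 carries 5 stars in control and 3 in testosterone sheep, and is the one member with a star on the right.

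The study's main question was what testosterone before birth does to each depot. No member passed in visceral (0% of 12860 genes tested passed), subcutaneous (0% of 12166), perirenal (0% of 12872) or epicardial fat (0% of 12793) by edgeR. At an unadjusted p under 0.05 there were 0, 3, 0 and 0 members and 1212, 622, 691 and 723 genes of all, and DESeq2 called 0 members and 21, 12, 10 and 24 genes of all. GRB14 had too few reads to be tested in visceral and perirenal fat. When the 4 depots of a sheep were added together, 0 members passed (0.00654% of all genes, a single gene). At an unadjusted p under 0.05 by edgeR there were 1 member and 1041 of 15301 genes, and DESeq2 called 0 members.

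The 3 members under an unadjusted 0.05 in subcutaneous fat were GRB14, FOXO1 and IRS2, each lower in testosterone sheep. GRB14 stood at 0.959 ± 0.779 against 3.21 ± 1.02 CPM, with no overlap between the groups, and differed by -1.97 on the log2 scale (SE 0.73, 95% interval -3.56 to -0.379, edgeR adjusted p = 0.927). FOXO1 was at 164 ± 25.4 against 232 ± 42.8 CPM (-0.48, SE 0.20, adjusted p = 0.927), with 1 testosterone library, that of sheep 185 at 198 CPM, above the lowest control library. IRS2 was at 301 to 378 CPM against 319 to 803 CPM (-0.60, SE 0.27, adjusted p = 0.927), with overlapping groups. PIK3R1 also did not overlap, if narrowly, at 587 to 822 CPM in testosterone and 829 to 1124 CPM in control sheep (-0.32, SE 0.20, edgeR unadjusted p = 0.143, adjusted p = 0.927). The gap lay between 822.3 CPM in testosterone sheep 48 and 828.6 CPM in control sheep 201. How many of all genes tested do not overlap between these groups was not counted. The subcutaneous libraries of testosterone sheep include that of sheep 48, with 784135 reads in all. Without it GRB14 was at -2.05 (adjusted p = 0.911). Over the 7 fits without 1 library in which GRB14 could be tested, it ran from -2.85 without testosterone sheep 185 (adjusted p = 0.762) to -1.34 without testosterone sheep 233 (adjusted p = 0.607).

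The intervals show what size of effect these data leave possible. For INSR in perirenal fat the log2 fold change was -0.11 with a 95% interval of -0.399 to 0.173, and for PIK3CA in epicardial fat -0.08 with -0.396 to 0.237. For SLC2A4 the interval was wide in visceral fat, -0.907 to 1.31 around 0.20, and -1.05 to 0.202 around -0.42 in epicardial fat. IRS2 was negative in each of the 4 depots (-0.40, -0.60, -0.45 and -0.05 in visceral, subcutaneous, perirenal and epicardial fat), values that share the same 8 animals. GRB14 in epicardial fat was at -0.35 (95% interval -1.23 to 0.528, edgeR adjusted p = 0.942), and summed over depots, where epicardial reads make up most of its count, at -0.82 (SE 0.33, adjusted p = 0.71). The counts were summed without first bringing the 4 depots of a sheep to a common depth. The summed value therefore also depends on the share of epicardial counts in each sheep's sum, and that part was not tested.

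Whether the effect of testosterone differed between depots was tested jointly over the 4 depots. No member passed (0.00703% of all genes, a single gene). At an unadjusted p under 0.05 by edgeR there were 656 of 14225 genes, 1 of them a member, and DESeq2 called 0 members. FOXO1 had the smallest value among them (unadjusted p = 0.0292, edgeR adjusted p = 0.994), with effects of testosterone of 0.31 (visceral), -0.48 (subcutaneous), -0.22 (perirenal) and 0.17 (epicardial) on the log2 scale. GRB14 was next (unadjusted p = 0.0741, adjusted p = 0.994). The differences in calls between control and testosterone sheep described above are therefore not shown to be differences between the treatments.

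**Figure D5:**
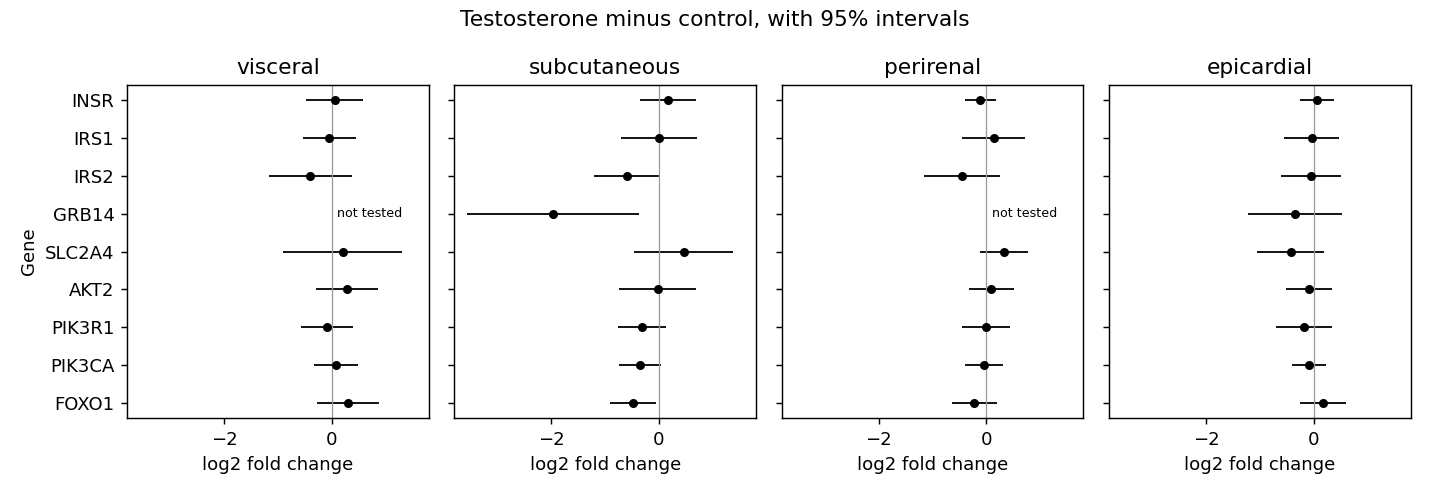
The log2 fold change of each member between testosterone and control sheep in each depot, with its approximate 95% interval derived from edgeR's fit. GRB14 was not tested in visceral and perirenal fat. Intervals of GRB14, IRS2 and FOXO1 in subcutaneous fat lie below 0 before adjustment over all genes, and 0 members pass after it.

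The wider pathway was followed with 63 further genes, 63 of them in the table and 58 or 59 tested per comparison. In control sheep 13 of 59 passed for visceral against epicardial fat (9 higher and 4 lower in visceral fat, with 21.9% of all genes passing), 11 of 59 for subcutaneous against epicardial fat (10 higher and 1 lower, 23.1% of all genes) and 8 of 59 for perirenal against epicardial fat (8 higher, 25.2% of all genes). These shares are near or below those of all genes. Their medians were 0.08, 0.16 and 0.04 against -0.03, -0.01 and -0.03 over all genes. SORT1, the sorting receptor that helps to form GLUT4 storage vesicles in mouse and human fat cells, was at 44.0 ± 9.15 CPM in epicardial fat and 101.5 to 109.8 CPM in the other control depots, with log2 differences of 1.27 (SE 0.15, edgeR adjusted p = 1.67e-05) for visceral, 1.32 (SE 0.15, adjusted p = 7.73e-06) for subcutaneous and 1.17 (SE 0.15, adjusted p = 3.93e-05) for perirenal minus epicardial fat. SREBF1, which drives lipid synthesis genes under insulin, was at 11.5 ± 3.44 CPM in epicardial and 24.55 ± 7.43 CPM in subcutaneous fat (1.08, SE 0.20, adjusted p = 9.16e-04). It also passed as higher in perirenal (0.67, adjusted p = 0.0222) and visceral fat (0.60, adjusted p = 0.0414), calls that were lost without the heart-muscle-rich libraries (adjusted p = 0.143 and 0.212). The perirenal call was also lost without sheep 98 (adjusted p = 0.154) or 131 (adjusted p = 0.0974), and the visceral one without any single sheep (adjusted p = 0.0627 to 0.178).

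By role, in the pair with the most calls, among 9 tested adaptors and receptors GRB10 and GAB1 passed as higher and IGF1R as lower in visceral than in epicardial fat. Of 19 genes of the kinase cascade PIK3CB and MTOR were higher and PIK3R2 lower. Of 10 genes of GLUT4 traffic SORT1 was higher and LNPEP and TBC1D4 lower, and of 10 FOXO and insulin-responsive genes PDK4, CCNG2 and SREBF1 were higher. Subcutaneous against perirenal fat had 10 of 59 passing (23.6% of all genes). Visceral against subcutaneous fat had 3 of 59 (14% of all genes), namely IGF1R, PHLPP2 and GSK3B, all lower in visceral fat. Visceral against perirenal fat had 0 by edgeR (0.613% of all genes). In that pair 10 of the 59 and 1696 of 13369 genes of all had an unadjusted p under 0.05 by edgeR. In the first 2 of these pairs the list's share is below that of all genes. In testosterone sheep 0 to 2 of 59 passed per pair: PIK3R3 was higher in subcutaneous than in perirenal fat (1 of 59, with 2.23% of all genes passing), and SLC2A1 and PIK3CD were higher in subcutaneous than in epicardial fat (2 of 59, with 4.5% of all genes), shares near those of all genes. For testosterone, 0 passed in any depot, over depots or in the interaction. At an unadjusted p under 0.05 by edgeR there were 1 to 5 of the list, against 622 to 1212 of all genes tested.

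The genes whose pattern was most like that of GRB14 over the 32 libraries were GATA4, TBX20, FSBP, NXPH2 and GDF10, with Pearson correlations of log2 CPM of 0.89, 0.875, 0.86, 0.856 and 0.847. Correlations of ranks (Spearman) were lower, at 0.646, 0.626, 0.693, 0.666 and 0.649. GATA4 and TBX20 are transcription factors of the developing heart. Over the 24 libraries without epicardial fat the Pearson correlations were -0.032, 0.242, 0.332, 0.281 and 0.219, so that the likeness rests on the epicardial depot. Outside that depot GRB14 has too few reads for these values to show whether the genes vary together. For the other members the 2 closest genes were FER and METAP2 for INSR (0.726 and 0.666), TOMM70 and DNAJB1 for IRS1 (0.838 and 0.829), and PTP4A2 and TRAPPC10 for IRS2 (0.909 and 0.883). They were LRRC24 and LPL, the lipoprotein lipase of fat tissue, for SLC2A4 (0.766 and 0.755), NTHL1 and ETV2 for AKT2 (0.803 and 0.798), and FRS2 and VCPIP1 for PIK3R1 (0.763 and 0.736). By rank the values of NTHL1 and ETV2 for AKT2 were lower, at 0.614 and 0.645. For PIK3CA they were GNAT2 and DENND4A (0.752 and 0.722), and for FOXO1 EEF2K and the cell cycle inhibitor gene CDKN1A (0.749 and 0.733). These are the highest of 11948 genes for each member, the libraries share animals and depots, and the values are descriptions.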

How the data were processed

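The authors deposited unnormalized counts, 1 row per gene and 1 column for each of 32 libraries, made with QuantSeq 3′ libraries from RNA of integrity 7 or more, per the labels' protocols. The submitters' processing notes name STAR, featureCounts 1.6.1, Trimmomatic 0.36 and DESeq2 1.24.0. Build, annotation and strand setting: not given in the sources used here. Here genes with too few counts were removed (filterByExpr, minimum count 10), libraries were scaled by TMM, and edgeR 4.0.16 (limma 3.58.1, R 4.3.3) quasi-likelihood tests with robust dispersions were fitted on all genes, with Benjamini-Hochberg adjustment and a threshold of 0.05. Intervals of log2 fold changes are approximate 95% intervals, built from the SE derived from the F statistic and from the degrees of freedom of each fit. The testosterone effect was fitted within each depot (8 libraries) and on counts summed per sheep. Depot pairs were fitted within each treatment (16 libraries) with sheep as a block, since the labels give the animal, and the interaction over 32 libraries. Libraries of the same sheep deviated together (mean correlation 0.23, over 0.1 in 41 of 48 pairs). No replicate pair was identical (0 of 48). DESeq2 1.42.0 was an alternative. The fits for testosterone in epicardial fat, for control depot pairs and for the interaction were also run on simulated counts. These had the same spread for all genes and no differences between sheep, unlike these data, so no conclusion is drawn from them here. The members and gene lists were chosen with earlier results of these data known. All 9 members are named, and of the other pathway genes those passing for testosterone, the 3 passing in the largest number of control depot pairs (ties, which held here for all but GRB10, were ordered by largest absolute log2 fold change), GRB10 and GRB7. Other pathway genes are named outside this rule, after their values were seen, to show which members of a list passed. Correlations used log2 CPM with a prior count of 2. One further pathway result is not reported here.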

Additional observations from a re-analysis of the deposited data

Results flagged for a closer look

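In 6 of the 72 sets of 4 libraries checked (9 members in 8 groups), 1 library lay far from the other 3, where chance gives about 1 in 20. IRS1 was high in perirenal fat of testosterone sheep 233, at 43.6 CPM. IRS2 was high in visceral fat of control sheep 201, at 685 CPM, and SLC2A4 in visceral fat of control sheep 132, at 141 CPM. AKT2 was low in epicardial fat of testosterone sheep 233, at 18.1 CPM. PIK3R1 was low in perirenal fat of control sheep 131, at 846 CPM, and in epicardial fat of testosterone sheep 48, at 497 CPM. Both epicardial libraries named here, of sheep 233 and 48, were among the 4 with heart muscle sums over 1000 CPM, and the part of that in these values was not tested.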

How the results depend on the processing

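Members passing for testosterone stayed at 0 in every depot, over depots and in the interaction under each alternative run. The counts of members that moved by over 1.5 times in other comparisons were these. By DESeq2, 2 members passed for perirenal against epicardial fat in testosterone sheep. Without the sheep block, 1 passed for visceral against epicardial and 1 for subcutaneous against perirenal fat in control sheep. Without the heart-muscle-rich epicardial libraries, 2 passed for subcutaneous against epicardial fat in control sheep and 0 for visceral against epicardial fat in testosterone sheep. In this last pair 2 passed without the ARGLU1-rich libraries. SLC2A4 reversed to 0.17 for perirenal minus epicardial fat in control sheep without the heart-muscle-rich libraries and to -0.12 for visceral minus subcutaneous fat in testosterone sheep without the ARGLU1-rich ones.

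Counts over all genes depended more on the setting. By DESeq2, testosterone gave 21, 12, 10 and 24 genes in visceral, subcutaneous, perirenal and epicardial fat, 63 over depots and 10 in the interaction; the depot pairs of testosterone sheep gave 1178 for perirenal against epicardial, 1122 for subcutaneous against epicardial, 990 for subcutaneous against perirenal, 687 for visceral against epicardial, 355 for visceral against subcutaneous and 137 for visceral against perirenal fat, and visceral against perirenal fat of control sheep 255. With no filter, counts were 1 for testosterone in subcutaneous fat, 5 over depots, 128 and 22 for visceral against perirenal fat in control and testosterone sheep, and 420 for perirenal against epicardial fat in testosterone sheep. Without the sheep block, counts were 0 in the interaction, 1058 and 48 for visceral against subcutaneous and 30 and 7 for visceral against perirenal fat in control and testosterone sheep, and 176 for subcutaneous against perirenal and 156 for perirenal against epicardial fat in testosterone sheep. Without the heart-muscle-rich libraries, control sheep gave 1738, 2018 and 2221 genes and testosterone sheep 2, 135 and 15 for visceral, subcutaneous and perirenal against epicardial fat, and the interaction 0. Without the ARGLU1-rich libraries, the interaction gave 0 and visceral against epicardial fat of testosterone sheep 1094. The cause of these shifts was not tested, beyond the smaller number of libraries where some were left out.

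With each sheep left out in turn, members passing in control sheep ranged from 0 to 1 for visceral against perirenal, 1 to 3 for visceral against epicardial, 1 to 3 for subcutaneous against perirenal, 1 to 4 for subcutaneous against epicardial and 2 to 4 for perirenal against epicardial fat. In testosterone sheep they ranged from 0 to 2 for visceral and 1 to 2 for perirenal against epicardial fat. All genes passing in control sheep ranged from 756 to 1349 for visceral against subcutaneous, 35 to 126 for visceral against perirenal, 1726 to 2231 for visceral against epicardial, 1794 to 2309 for subcutaneous against perirenal, 2105 to 2267 for subcutaneous against epicardial and 1903 to 2896 for perirenal against epicardial fat. In testosterone sheep the same pairs ranged from 19 to 149, 0 to 17, 1 to 978, 43 to 342, 110 to 827 and 9 to 1529. Testosterone effects ranged from 0 to 1 gene in subcutaneous fat, 0 to 4 over depots and 0 to 1 in the interaction. Log2 fold changes that crossed 0 were GRB14 for visceral minus perirenal fat in control sheep (-1.90 to 0.32) and visceral minus subcutaneous fat in testosterone sheep (-1.36 to 0.70), and SLC2A4 for perirenal minus epicardial fat in control sheep (-0.30 to 0.12), visceral minus subcutaneous fat in testosterone sheep (-0.26 to 0.58) and testosterone in visceral fat (-0.10 to 0.91).

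The heart-muscle-rich and ARGLU1-rich libraries were not left out of the sums over depots, which would then cover different depots in different sheep. GRB14 outside epicardial fat rests on 0 to 19 reads per library, which limits the precision of its differences among the other depots.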
